A study of Homo sapiens with 6 samples.

Results

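The SLC25 genes encode the mitochondrial carrier family. The genes described here were chosen by name, as every gene of the deposited table called SLC25A plus a number, without SLC25A20 and SLC25A1. The rule used no measured value and gave 46 of 24154 genes. RNA was measured by poly(A) RNA-seq in cells labelled HCT116, a human colorectal cancer cell line, growing in logarithmic phase. In the CPT2 knockdown group, siRNA against CPT2 was applied for 48 hours (n = 3 libraries), and in the NC group a negative control siRNA for the same time (n = 3 libraries). Both groups are transient siRNA treatments of the same line, and the sources used here do not give the number of different CPT2 siRNAs. Nothing in the labels shows that the 3 libraries of a group are separate cultures, so every p below measures the spread between these libraries, which may be technical.

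Most metabolites cannot cross the inner mitochondrial membrane by themselves, and SLC25 carriers exchange or carry them across it: ADP for ATP, phosphate, organic acids, amino acids, coenzymes and iron. Most of the proteins share a fold built from repeats of a common motif, are made in the cytosol and enter the inner membrane through the TOM complex, the small TIM chaperones and TIMM22. CPT2, the targeted gene, encodes carnitine palmitoyltransferase 2 of the inner membrane, which remakes acyl-CoA from acylcarnitine for beta-oxidation.

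The libraries held 28353790 to 29449380 counts. CPT2 had 492, 597 and 553 counts in the knockdown libraries, against 709, 881 and 911 in the NC libraries. Its log2 fold change was -0.44 (SE 0.17), with an edgeR adjusted p of 0.338. With offsets for transcript GC content and length, which remove the trend of counts with GC and length from each library, the CPT2 value was 0.02. Such offsets also remove any knockdown difference that itself runs with GC or length, here and wherever they are used below. Knockdown library 1 differed most from the rest: its score on the leading principal component, which held 53.2% of the variance, was 76.6, and the 5 others scored -44.6 to 16.0. Of 8 colorectal epithelial markers, 3 (KRT8, KRT18 and EPCAM) had a mean NC FPKM of at least 1. CDX2 was listed at 0 in all 6 libraries and VIL1 at no more than 0.015 FPKM, so the marker profile does not match the label, and the cells are called here only by it. The endothelial gene CDH5 had 12.3 to 20.3 FPKM in the knockdown libraries, against 22.0 to 27.7 FPKM in the NC libraries, while PECAM1 and VWF did not pass 0.121 FPKM in any library. Of 4 fibroblast markers, COL1A1 alone reached 1 FPKM, and the list summed to 12.9 to 17.7 FPKM in the knockdown libraries, against 11.7 to 14.1 FPKM in the NC libraries. The hepatocyte list summed to at most 0.035 FPKM in the knockdown libraries and 0.2 FPKM in the NC libraries, and the immune list to 0.448 to 0.763 FPKM in the knockdown libraries and 0.457 to 0.583 FPKM in the NC libraries. The part of these marker levels in the carrier results was not tested.

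The ADP/ATP carriers exchange cytosolic ADP for the ATP made in the matrix, and their RNAs made up the largest set among the carriers. SLC25A4 lies on chromosome 4 (185143241 to 185150382, plus strand), SLC25A5 on chromosome X (119468400 to 119471319, plus strand) and SLC25A6 in the pseudoautosomal region of chromosome X (1386152 to 1392724, minus strand), by GENCODE 29 on GRCh38. Because reads of such close relatives could be counted to the wrong gene, a stretch of the coding sequence is shown, at positions 76 to 135 from the A of the start codon. All 3 have a coding sequence of 897 bases, and capitals mark the 8 of 60 positions that are not the same in all 3 genes.
SLC25A4: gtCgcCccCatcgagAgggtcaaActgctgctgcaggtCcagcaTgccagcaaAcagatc
SLC25A5: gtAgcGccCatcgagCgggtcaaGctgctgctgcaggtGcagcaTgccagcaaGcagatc
SLC25A6: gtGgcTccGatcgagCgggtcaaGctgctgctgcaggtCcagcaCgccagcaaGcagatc
The coding sequences are identical at 78.8% of bases between SLC25A6 and SLC25A5, at 77.9% between SLC25A6 and SLC25A4 and at 77.3% between SLC25A5 and SLC25A4. The longest run of identical bases is 29 between SLC25A6 and SLC25A5, so no 50-base window of one occurs in another. Windows of 50 bases that also occur in transcripts of other genes made up 56 of 848 (6.60%) for SLC25A5, 19 of 848 (2.24%) for SLC25A6 and 0 of 848 for SLC25A4. SLC25A6 shared them with the pseudogene SLC25A6P2, and SLC25A5 with 5 other genes, among them the pseudogene SLC25A5P3. No 100-base window was shared. These are shares of windows and not of counts. Whether reads of SLC25A5 and SLC25A6 were exchanged with those genes was not tested, so the size of any counting error is unknown. The search covered exact matches of the coding sequences only, and left out their untranslated ends and the chromosome Y copies of pseudoautosomal genes.

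In NC cells, 36 of the 46 carriers had a mean of at least 1 FPKM, the authors' length-scaled unit of fragments per kilobase and library depth, meant to let levels of different genes be set side by side. The same number passed that level in the knockdown cells. A mean of at least 100 FPKM in NC was reached by 3 carriers, 19 lay between 10 and 100 FPKM, 14 between 1 and 10 FPKM and 10 under 1 FPKM. SLC25A5 came first in NC, with 310.5 ± 53.0 FPKM in knockdown cells and 326.7 ± 12.4 FPKM in NC cells (SD, n = 3 each). SLC25A3, the phosphate carrier that feeds the ATP synthase, averaged 256 ± 60.6 FPKM in knockdown cells and 287 ± 11.1 FPKM in NC cells. SLC25A6 averaged 188 ± 17.9 FPKM in knockdown cells and 145 ± 16.1 FPKM in NC cells. The fourth was SLC25A39, which takes glutathione into the matrix, with 132 ± 25.7 FPKM in knockdown cells and 99.2 ± 7.45 FPKM in NC cells. In NC each of these 4 lay above the next by more than the sum of their SDs. The fifth, SLC25A16, a carrier linked to coenzyme A, was far below them, at 18.3 ± 4.45 FPKM in knockdown cells and 24.9 ± 4.21 FPKM in NC cells. SLC25A23, SLC25A10 and SLC25A36 followed at NC means of 23.9, 22.3 and 20.6 FPKM, and neighbours in that order differed by less than the spread of SLC25A16. FPKM did not follow the counts evenly between libraries. SLC25A16 had 2149 counts and 13.2 FPKM in knockdown library 1, against 2197 counts and 24.3 FPKM in NC library 2. The part of this in the order, shares and ratios by FPKM was not tested. The leading 4 carriers held 69.7%, 71.5% and 74.0% of the summed FPKM of the 46 carriers in the knockdown libraries, against 71.6%, 69.0% and 70.8% in the NC libraries, which overlap. The summed level was 1113, 1213 and 1372 FPKM in the knockdown libraries, against 1222, 1184 and 1248 FPKM in the NC libraries, which overlap too.

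**Figure D1:**
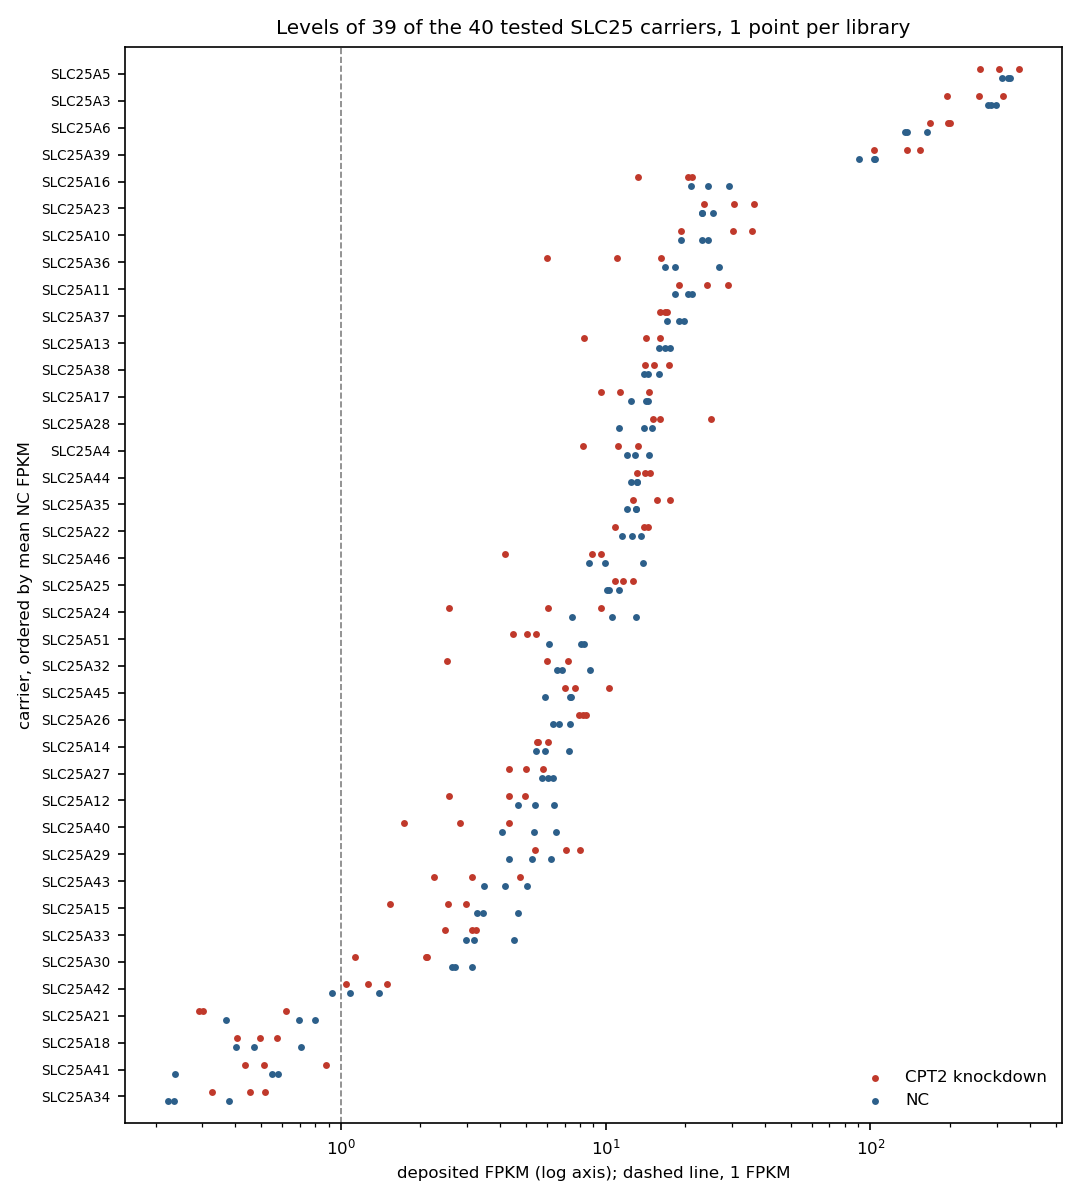
Deposited FPKM (log axis) of 39 of the 40 carriers tested, ordered by mean NC level, with 1 point per library (n = 3 per group); the dashed line marks 1 FPKM. SLC25A5, SLC25A3, SLC25A6 and SLC25A39 lie apart at the top, and SLC25A21, SLC25A18, SLC25A41 and SLC25A34 lie at the bottom with NC means under 1 FPKM.

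The silent end of the family held tissue-restricted members. SLC25A31, the ADP/ATP carrier of the testis, SLC25A2, a second ornithine carrier, and SLC25A48 had 0 counts in all 6 libraries. A count of 0 allows up to 3 counts, which was 0.102 to 0.106 CPM (counts relative to the library's total), and covers counting error only. SLC25A47, known from liver, had 4 counts in knockdown library 1 and 0 in the other 5 libraries. SLC25A52, a close relative of the mitochondrial NAD carrier, had 0, 1 and 0 counts in the knockdown libraries, against 0, 2 and 2 in the NC libraries. SLC25A53 had 0 in every knockdown library, against 0, 0 and 6 counts in the NC libraries. These 6 were too low to test, and 40 carriers remained. Among those 40, SLC25A21, SLC25A18, SLC25A41 and SLC25A34 had NC means of 0.28 to 0.62 FPKM.

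No carrier passed the test between CPT2 knockdown and NC in fits that did not pair libraries by replicate number. edgeR's quasi-likelihood test called 0 of the 40 carriers at an adjusted p under 0.05, against a background of 0.0131% of the 15302 genes tested, and DESeq2 also called 0 of the 40, against 0.111% of those genes. An edgeR fit with a replicate block called 5 of the 40, against 4.14% of all genes. Block and GC and length offsets together called 2 of the 40, against 4.92% of all genes. In the fit without the block, used from here on, the edgeR adjusted p of the carriers ran from 0.338 to 0.963. At an unadjusted p under 0.05, 4 carriers (SLC25A6, SLC25A39, SLC25A28 and SLC25A23) had a higher value in the knockdown, 10% of the 40 against 9.18% of all genes. Another 2 (SLC25A30 and SLC25A40) had a lower value, 5% against 5.29% of all genes. Both shares lie near the background. The 4 higher carriers became 2, 1, 2 and 9 without NC library 1, NC library 2, knockdown library 1 and knockdown library 2. The 2 lower ones became 0 without NC library 2, NC library 3 or knockdown library 1, 6 without knockdown library 2 and 1 without knockdown library 3. Over all genes and both directions, 2215 of 15302 had an unadjusted p under 0.05 with every library kept. Without NC library 1, 2 or 3 this was 1325 of 15652, 503 of 15585 and 1224 of 15626 genes. Without knockdown library 1, 2 or 3 it was 1569 of 15608, 5615 of 15635 and 1436 of 15634 genes. The counts of carriers thus fell and rose with those of all genes. In the authors' deposited table, 39 of the carriers have a p-value and 0 are called up or down, against 2.77% of genes called up and 1.38% called down. Those calls require a minimum fold change besides a p limit, so they differ in kind from the adjusted p calls above.

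As a group the carriers lay near the middle of all genes. The log2 fold change was above 0 in 24 of 40 carriers (60%), against 50.7% of all genes tested, and below 0 in 16. The median was 0.08, with quartiles of -0.29 and 0.38, against a median of 0.01 and quartiles of -0.30 and 0.32 over all genes. Scaling by library size alone gave a median of -0.06 for the carriers and -0.13 for all genes, so the sign of the median depends on the scaling. TMM-scaled CPM (edgeR's scaling between libraries) did not overlap between the groups for 9 carriers. They were higher in every knockdown library for 6 (15%; 12.2% of all genes), among them SLC25A6, SLC25A39, SLC25A28, SLC25A45 and SLC25A34. They were lower in every knockdown library for 3 (7.5%; 12.2% of all genes), namely SLC25A27, SLC25A15 and SLC25A30. For the other 31 carriers the groups overlapped. Of the 36 expressed carriers, 5 (SLC25A5, SLC25A16, SLC25A37, SLC25A4 and SLC25A14) had a ratio of mean FPKM in the other direction than the counts.

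**Figure D2:**
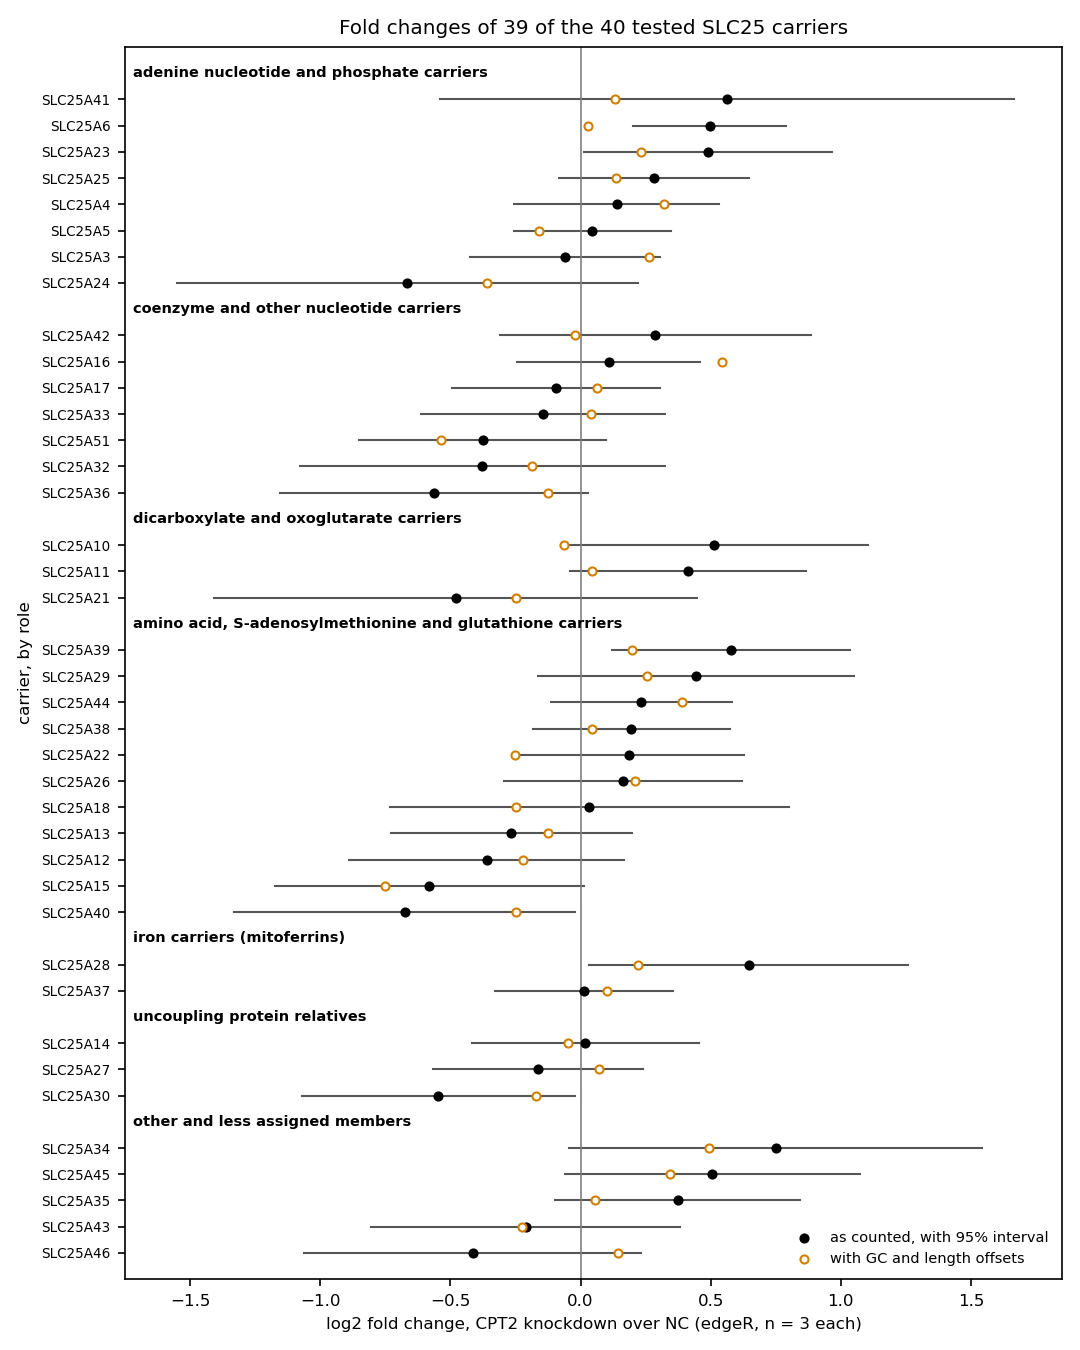
Log2 fold change of 39 of the 40 tested carriers, CPT2 knockdown over NC (n = 3 each), by role: filled points as counted with the 95% interval from edgeR, open points with GC and length offsets. None of the 40 passed an adjusted p under 0.05 in either fit, and over all 40 the value with offsets was the nearer to 0 in 27.

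Among the ADP/ATP carriers, SLC25A6 had the smallest unadjusted p of the family. It had 10611, 12263 and 12412 counts in the knockdown libraries, against 8647, 8706 and 10605 in the NC libraries. This was 419, 437 and 425 CPM in the knockdown libraries, against 288, 282 and 338 CPM in the NC libraries. Every knockdown library lay above every NC library, and the knockdown values lay closer together than the NC values. SLC25A6 thus had a log2 fold change of 0.50 (SE 0.13, 95% interval 0.20 to 0.79), with an unadjusted p of 0.00407 and an edgeR adjusted p of 0.338, and it kept a value of 0.45 to 0.58 without any 1 library. The authors' deposited table gives SLC25A6 a log2 fold change of 0.50 with a p of 0.00068 and calls it normal. Their call sets limits on both p and fold change. SLC25A6 passed their p limit, and was called normal because its fold change lay below their limit. The longest SLC25A6 transcript is 64.9% GC, and with GC and length offsets the log2 fold change was 0.03 (unadjusted p 0.88). With offsets and without knockdown library 1 together, a setting chosen after seeing the data, it was 0.20 (SE 0.13).

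SLC25A5, the ADP/ATP carrier typical of dividing cells, had 10156, 11611 and 14266 counts in the knockdown libraries, against 13351, 12286 and 13201 in the NC libraries. In CPM it had 401, 414 and 489 in the knockdown libraries, against 445, 398 and 421 in the NC libraries, which overlap. Its log2 fold change of 0.05 (SE 0.13, 95% interval -0.26 to 0.35) took the other sign with library size scaling alone, with offsets, on the FPKM scale and without knockdown library 3. SLC25A4, the form of heart and muscle, was the minor one, at 38.7, 44.3 and 53.8 CPM in the knockdown libraries, against 39.3, 40.1 and 44.7 CPM in the NC libraries (log2 fold change 0.14, SE 0.17). Of the summed FPKM of the ADP/ATP carriers, SLC25A6 held 38.5%, 38.6% and 34.2% in the knockdown libraries, against 27.8%, 29.5% and 32.4% in the NC libraries. SLC25A5 held 59.6%, 59.2% and 63.5% in the knockdown libraries, against 69.5%, 67.4% and 65.2% in the NC libraries. The shares of both genes did not overlap between groups, though knockdown library 3 and NC library 3 lay within 2 percentage points of each other. As SLC25A4 held only 1.89% to 3.15%, the 2 shares nearly mirror each other and are 1 observation. How often other gene pairs stay apart in this way was not computed. The longest transcript is 64.9% GC for SLC25A6 and 49.45% GC for SLC25A5, and these shares were not computed with GC and length offsets. SLC25A6 had 1.04, 1.06 and 0.870 counts per SLC25A5 count in the knockdown libraries, against 0.648, 0.709 and 0.803 in the NC libraries. A share or ratio shows an unequal difference of the members and not which of them differed, and 3 libraries against 3 cannot give an exact permutation p under 0.1.

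**Figure D3:**
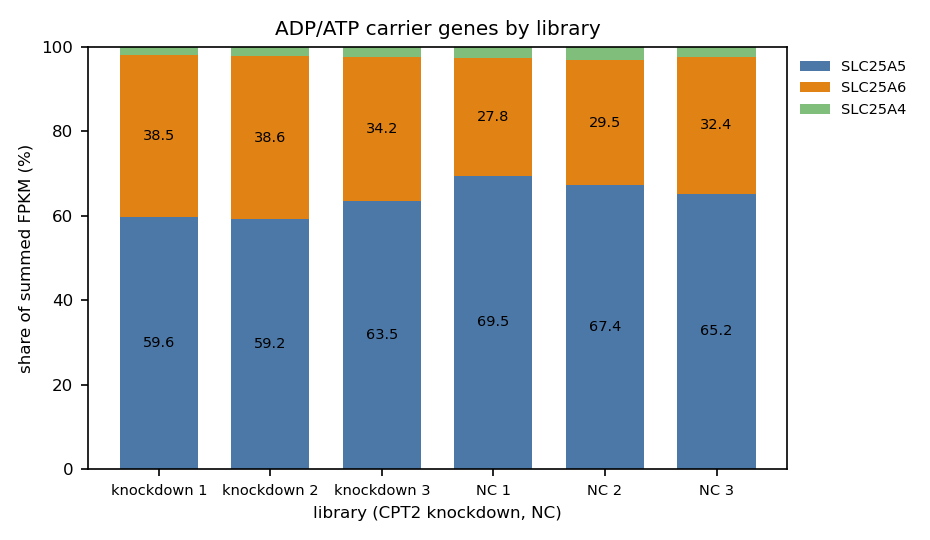
Share of each ADP/ATP carrier in their summed FPKM (%), 1 stacked bar per library, CPT2 knockdown libraries left of NC libraries. SLC25A6 holds 34.2% to 38.6% in knockdown libraries and 27.8% to 32.4% in NC libraries, SLC25A4 holds 1.89% to 3.15% over all 6, and SLC25A31 is at 0.

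SLC25A3 had 371, 428 and 546 CPM in the knockdown libraries, against 487, 455 and 461 CPM in the NC libraries. The knockdown libraries lay on both sides of the NC range, and the log2 fold change of -0.06 (SE 0.16) became 0.26 with offsets and 0.05 without knockdown library 1. SLC25A23, SLC25A24 and SLC25A25 are calcium-regulated carriers that exchange ATP-Mg for phosphate. SLC25A23 had 150, 109 and 84.0 CPM in the knockdown libraries, against 88.5, 77.9 and 77.8 CPM in the NC libraries. The groups overlapped, and the log2 fold change of 0.49 (SE 0.21, unadjusted p 0.0453, edgeR adjusted p 0.338) was 0.24 without knockdown library 1. SLC25A24 had lower values, at 12.6, 43.2 and 26.9 CPM in the knockdown libraries, against 32.6, 54.1 and 44.6 CPM in the NC libraries (log2 fold change -0.67, SE 0.39). Knockdown library 1 was the lowest of all 6, the groups overlapped, and the value was -0.33 without that library and -0.36 with offsets. SLC25A25 had 48.0, 37.9 and 45.4 CPM in the knockdown libraries, against 35.6, 34.3 and 38.0 CPM in the NC libraries (log2 fold change 0.28, SE 0.16; 0.14 with offsets), and the groups overlapped, with knockdown library 2 just below NC library 3. SLC25A41, a related carrier with few counts, had 0.56 (SE 0.49; 0.13 with offsets). Over the 8 adenine nucleotide and phosphate carriers tested, 6 had values above 0 and 2 below, with a median of 0.21 (0.13 with offsets), and 0 were called.

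SLC25A39 and its relative SLC25A40 both carry glutathione, the main thiol antioxidant, into the matrix. SLC25A39 lies on chromosome 17 (44319625 to 44324870, minus strand) and SLC25A40 on chromosome 7 (87833568 to 87876357, minus strand). SLC25A39 had 272, 160.3 and 207 CPM in the knockdown libraries, against 154, 125 and 149 CPM in the NC libraries. The groups did not overlap, with knockdown library 1 the highest and knockdown library 2 close to NC. The log2 fold change of 0.58 (SE 0.20, unadjusted p 0.0185, edgeR adjusted p 0.338) was 0.35 without knockdown library 1 and 0.20 with offsets. SLC25A40 had 8.33, 18.1 and 11.7 CPM in the knockdown libraries, against 16.5, 23.8 and 20.7 CPM in the NC libraries. Knockdown library 2 lay inside the NC range, and the log2 fold change of -0.67 (SE 0.29, unadjusted p 0.0448, edgeR adjusted p 0.338) was -0.25 with offsets. The FPKM of SLC25A39 was 88.3, 23.8 and 48.7 times that of SLC25A40 in the knockdown libraries, against 25.4, 14.0 and 19.4 times in the NC libraries. These ratios overlapped, since knockdown library 2 lay below NC library 1. The longest transcript is 59.4% GC for SLC25A39 and 34.2% GC for SLC25A40.

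Of the other amino acid carriers, SLC25A12 and SLC25A13 exchange aspartate for glutamate and serve the malate-aspartate shuttle. SLC25A12 had 9.28, 15.7 and 13.5 CPM in the knockdown libraries, against 14.5, 19.0 and 16.0 CPM in the NC libraries (log2 fold change -0.36, SE 0.23; -0.22 with offsets). SLC25A13 had 31.8, 53.5 and 47.4 CPM in the knockdown libraries, against 51.8, 55.1 and 52.7 CPM in the NC libraries (log2 fold change -0.27, SE 0.20; -0.13 with offsets). Both overlapped, and both were lowest in knockdown library 1. Their FPKM ratio overlapped between the groups: SLC25A13 was 3.24, 3.23 and 3.30 times SLC25A12 in the knockdown libraries, against 3.39, 2.75 and 3.10 times in the NC libraries. The knockdown ratios lay close together and inside the wider NC range. SLC25A15, which exchanges ornithine for citrulline in the urea cycle, had 2.96, 4.99 and 4.25 CPM in the knockdown libraries, against 5.40, 7.42 and 5.46 CPM in the NC libraries. It was lower in every knockdown library (log2 fold change -0.58, SE 0.26, edgeR adjusted p 0.338). SLC25A38, the glycine carrier needed for haem synthesis, SLC25A26, which takes up S-adenosylmethionine, and the glutamate carrier SLC25A22 had log2 fold changes of 0.20, 0.16 and 0.19, with overlapping groups. With offsets these were 0.05, 0.21 and -0.25. SLC25A29, a carrier of basic amino acids, had 0.44 (SE 0.27), which was 0.10 without knockdown library 1 and 0.25 with offsets. SLC25A18, a second glutamate carrier, had 0.03 (SE 0.34; -0.25 with offsets). SLC25A44, which carries branched-chain amino acids, had 59.5, 54.6 and 48.0 CPM in the knockdown libraries, against 48.3, 45.8 and 43.8 CPM in the NC libraries (log2 fold change 0.23, SE 0.15). Over the 11 tested members of the amino acid, S-adenosylmethionine and glutathione group, 7 had values above 0 and 4 below, with a median of 0.16 that was -0.13 with offsets, and 0 were called.

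The mitoferrins bring iron to the matrix for haem and iron-sulfur clusters, SLC25A37 mainly in red cell precursors and SLC25A28 in other cells. SLC25A28 had 44.0, 23.3 and 24.5 CPM in the knockdown libraries, against 22.3, 16.2 and 20.1 CPM in the NC libraries. The groups did not overlap, and knockdown library 1 stood high. The log2 fold change of 0.65 (SE 0.27, unadjusted p 0.0409, edgeR adjusted p 0.338) was 0.28 without that library and 0.22 with offsets. SLC25A37 had 79.2, 60.9 and 69.5 CPM in the knockdown libraries, against 67.8, 69.8 and 70.0 CPM in the NC libraries. The knockdown libraries enclosed the NC range, and the log2 fold change was 0.01 (SE 0.15), with a sign that turned under library size scaling alone and on the FPKM scale. SLC25A28 had 1.47, 0.941 and 0.961 times the FPKM of SLC25A37 in the knockdown libraries, against 0.875, 0.565 and 0.733 times in the NC libraries, without overlap. How often other gene pairs stay apart in this way was not computed. The longest transcript is 58.1% GC for SLC25A28 and 50.1% GC for SLC25A37. With offsets SLC25A37 had 0.10, beside the 0.22 of SLC25A28.

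Coenzyme and nucleotide carriers leaned in no common direction, with 3 of the 8 tested above 0 and 5 below, a median of -0.12 (0.01 with offsets) and 0 called. SLC25A36, which moves pyrimidine nucleotides, had 41.2, 87.0 and 64.2 CPM in the knockdown libraries, against 80.4, 112 and 91.6 CPM in the NC libraries. Knockdown library 2 lay inside the NC range, and the log2 fold change of -0.56 (SE 0.26) was -0.12 with offsets. The related SLC25A33 had -0.14 (SE 0.21; 0.04 with offsets). SLC25A16 had 84.9, 79.4 and 90.3 CPM in the knockdown libraries, against 73.0, 71.2 and 92.1 CPM in the NC libraries (log2 fold change 0.11, SE 0.16). Its mean FPKM differed in the other direction, with a log2 ratio of -0.44, and library size scaling alone gave -0.03. SLC25A51, which brings NAD into mitochondria, had 7.35, 8.52 and 8.02 CPM in the knockdown libraries, against 8.03, 11.6 and 11.4 CPM in the NC libraries (log2 fold change -0.38, SE 0.21). SLC25A32, which carries folate, had -0.38 (SE 0.31; -0.18 with offsets), SLC25A17, a carrier of peroxisomes, had -0.09 (SE 0.18; 0.06 with offsets), and SLC25A42, which carries coenzyme A, had 0.29 (SE 0.26; -0.02 with offsets).

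The dicarboxylate carrier SLC25A10, which exchanges malate or succinate for phosphate, had 79.7, 37.9 and 59.4 CPM in the knockdown libraries, against 45.6, 35.1 and 43.3 CPM in the NC libraries. The groups overlapped, and the log2 fold change of 0.51 (SE 0.26) was -0.06 with offsets. SLC25A11, the oxoglutarate-malate carrier of the malate-aspartate shuttle, had 0.41 (SE 0.20; 0.04 with offsets), and the oxoadipate carrier SLC25A21 had -0.48 (SE 0.41; -0.25 with offsets) on few counts. Among the relatives of uncoupling proteins, SLC25A30 had 5.06, 8.20 and 8.12 CPM in the knockdown libraries, against 9.96, 9.95 and 11.4 CPM in the NC libraries. It was lower in every knockdown library (log2 fold change -0.55, SE 0.23, unadjusted p 0.0425, edgeR adjusted p 0.338; -0.17 with offsets). SLC25A27 had -0.16 (SE 0.18; 0.07 with offsets) and SLC25A14 0.02 (SE 0.19; -0.05 with offsets). Of the less assigned carriers, SLC25A34 had the highest log2 fold change of the 40, 0.75 (SE 0.35; 0.49 with offsets), on 31, 46 and 42 counts in the knockdown libraries, against 21, 22 and 36 in the NC libraries. SLC25A45 had 0.51 (SE 0.25), which was 0.19 without knockdown library 1 and 0.34 with offsets. SLC25A35 had 0.37 (SE 0.21), which was 0.14 without knockdown library 1 and 0.06 with offsets. SLC25A46, an outer membrane protein that affects mitochondrial shape, had -0.42 (SE 0.29), which was -0.17 without knockdown library 1 and 0.14 with offsets. SLC25A43 had -0.21 (SE 0.26), which was -0.04 without knockdown library 1 and -0.23 with offsets.

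**Figure D4:**
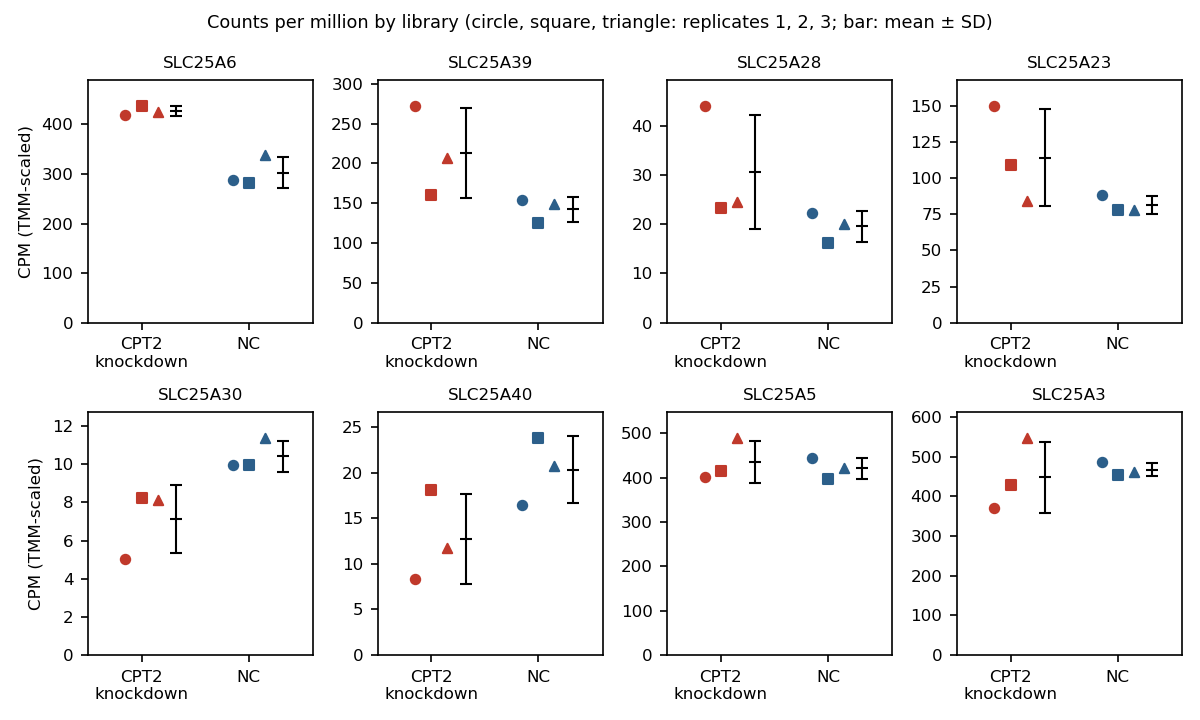
TMM-scaled CPM by library for the 6 carriers with an unadjusted p under 0.05 and for SLC25A5 and SLC25A3; circle, square and triangle are replicates 1, 2 and 3, and bars give mean ± SD (n = 3). Knockdown library 1 is the highest of 6 for SLC25A39, SLC25A28 and SLC25A23 and the lowest for SLC25A30 and SLC25A40, while SLC25A6 is even over the knockdown libraries at 419 to 437 CPM.

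The values followed the base composition of the transcripts. Across the 40 carriers, log2 fold change and GC content of the longest transcript had a Spearman rho of 0.86 and a Pearson r of 0.84, as a description across genes of the same 6 libraries, which are not independent points. Over the 13207 genes with a GC value the rho was 0.68, and without knockdown library 1 the carriers' rho was 0.75. All 15 carriers of at least 55% GC had values above 0, with a median of 0.49, against 0.35 for all genes of that class. Of the 13 carriers under 45% GC, 12 had values below 0, with a median of -0.38, against -0.32 for all genes of that class; SLC25A16 was the exception. The 12 carriers between those limits had 8 values above 0 and 4 below, with a median of 0.03, against -0.01 for all genes there. By library, relative to the NC mean, the median of the carriers of at least 55% GC was 0.74, 0.17 and 0.34 in the knockdown libraries, against 0.12, -0.19 and 0.08 in the NC libraries. The median of those under 45% GC was -0.82, -0.08 and -0.21 in the knockdown libraries, against -0.13, 0.14 and 0.02 in the NC libraries. Knockdown library 1 was the farthest from NC in both classes, and NC libraries 1 and 2 also lay in opposite directions in the 2 classes.

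With GC and length offsets the carriers' rho with GC was 0.22, and the median size of the log2 fold changes was 0.20, against 0.37 as counted. The sign stayed for 29 of 40 carriers. The edgeR fit with offsets called 0 carriers, against 0.0227% of the 13207 genes, and at an unadjusted p under 0.05 it had 3 above 0 (7.5%; 7.16% of genes) and 3 below (7.5%; 5.82% of genes). None of the 6 named above as counted was among them. They were chosen after their values were seen: SLC25A44 at 0.39, SLC25A16 at 0.54 and SLC25A4 at 0.32, and on the other side SLC25A15 at -0.75, SLC25A51 at -0.54 and SLC25A22 at -0.25. SLC25A15 was the only carrier whose CPM did not overlap between the groups and whose offset value was among those 6. The share of all genes that meet both conditions was not computed, so this does not set SLC25A15 apart.

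**Figure D5:**
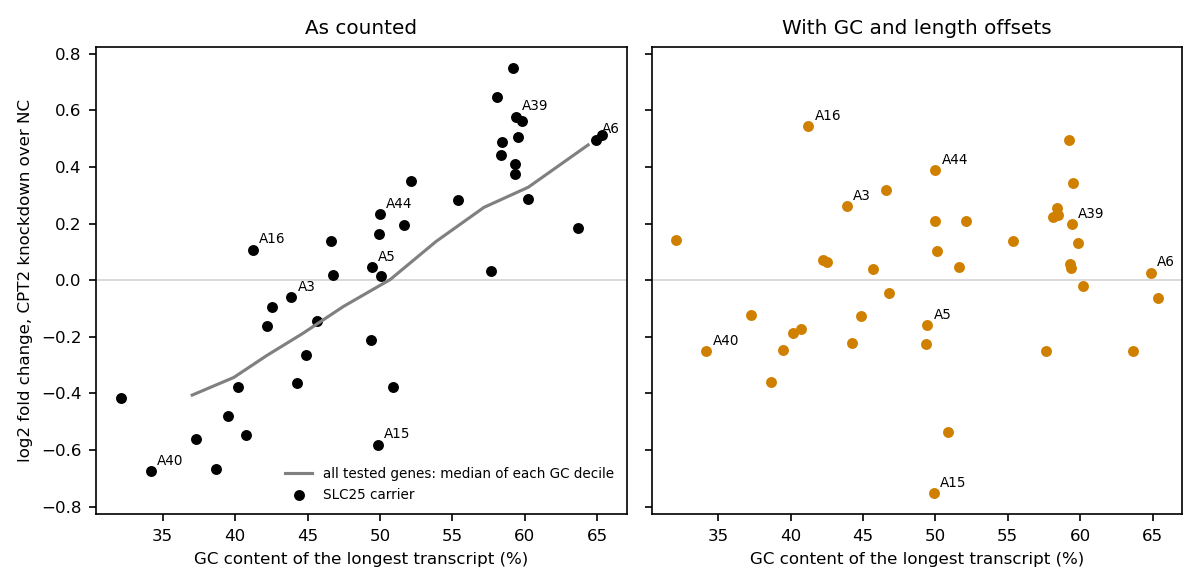
Log2 fold change (CPT2 knockdown over NC, n = 3 each) of the 40 tested carriers against the GC content of the longest transcript (%), left as counted and right with GC and length offsets; the grey line joins the medians of all tested genes in 10 equal classes of GC. As counted, carriers run along the line from SLC25A40 at low GC to SLC25A6 at high GC (rho 0.86), and with offsets the spread narrows (rho 0.22), leaving SLC25A15 lowest and SLC25A16 highest.

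The genes that deliver carriers to the membrane were read alongside. Of 13 genes of the carrier import pathway, 9 had log2 fold changes above 0 and 4 below, 0 were called, and the median was 0.04 (0.13 with offsets, -0.10 with library size scaling alone). TOMM40, the import pore, averaged 124 ± 35.7 CPM in knockdown cells and 82.2 ± 6.79 CPM in NC cells (log2 fold change 0.59, SE 0.21, edgeR adjusted p 0.338; 0.32 with offsets). The small chaperones TIMM10 and TIMM13 had 0.48 (SE 0.21) and 0.63 (SE 0.27), and the receptors TOMM20 and TOMM70 had -0.40 (SE 0.17) and -0.37 (SE 0.18). With offsets, TIMM10 had 0.15, TIMM13 0.13, TOMM20 -0.14 and TOMM70 -0.07. Of the 3 VDAC genes, which encode the pores of the outer membrane, 1 was above 0 and 2 below, and VDAC1 was lower in every knockdown library (log2 fold change -0.21, SE 0.15, edgeR adjusted p 0.432; -0.25 with offsets). Family genes with other names were all above 0 where tested: UCP2 had 0.45 (SE 0.22), UCP3 0.53 (SE 0.31), MTCH1 0.26 and MTCH2 0.14. With offsets these were 0.05, 0.38, -0.12 and 0.31. Of these 4, 0 were called, while UCP1, the uncoupling protein of brown fat, had 0 counts. Of 17 inner membrane transporters outside the family, 7 were above 0 and 10 below, 0 were called, and the median was -0.04. The widest value there was that of ABCB10, a transporter of red cell haem synthesis, at 6.08, 17.8 and 16.0 CPM in the knockdown libraries, against 19.6, 27.5 and 21.7 CPM in the NC libraries (log2 fold change -0.79, SE 0.36, edgeR adjusted p 0.338; -0.63 with offsets).

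Overlapping annotation limits a few carriers. SLC25A10, SLC25A32 and SLC25A51 share 46.6%, 69.7% and 3.59% of their exon bases with another listed gene on the same strand. Those partners had 0 counts in all 6 libraries for SLC25A10 and SLC25A32, and 0, 0 and 2 counts in the knockdown libraries, against 2, 0 and 6 in the NC libraries, for SLC25A51. On the opposite strand 10 carriers overlap a listed gene, the most being SLC25A35 with 33.2% of its exon bases under RANGRF. The protocol names no strand marking, so whether reads of such pairs were told apart is not known.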

How the data were processed

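Poly(A) libraries were made from cells with CPT2 siRNA (n = 3) or negative control siRNA (n = 3), grouped by the labels. For each gene the table the authors deposited holds raw read counts and FPKM values, per the file headers; the gene models behind the FPKM are not given in the sources used here. The same table holds the authors' deposited DESeq2 p-value, log2 fold change and call. By its header, the call sets limits on both p-value and fold change. The submitters' processing notes name the build GRCh38 and, with no version or role, StringTie, HISAT2, Bowtie2, TopHat2, edgeR and DESeq2.

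Counts were tested over all genes with edgeR 4.0.16 in R 4.3.3 (quasi-likelihood, TMM, filterByExpr, Benjamini-Hochberg over 15302 genes, calls under 0.05). The step was also run on simulated counts, without that filter. Those counts held no GC trend and no outlying library, so the run does not test the step under such conditions. Loci without an Ensembl identifier (4180, with 5.32% to 7.18% of counts) stayed in library sizes and tests, and 17 stray lines were dropped. Depth was 28353790 to 29449380 counts per library, and mitochondrial DNA genes took 17.0%, 15.6% and 8.99% in knockdown libraries, against 10.5%, 10.8% and 10.0% in NC libraries. GC and length offsets came from a loess fit (span 0.3) for each library, on the GC content and length of the longest GENCODE 29 transcript. The fitted values were the deviations of log2 CPM from each gene's mean over all libraries. Coding sequences are the longest open reading frames of GENCODE 29 transcripts. Same-group libraries differed beyond sampling noise (chi-square per degree of freedom 15.9 to 142), so none was counted as a duplicate. Alternatives were DESeq2 1.42.0, limma 3.58.1, other scalings and filters, a replicate block, offsets, and leaving out each library.

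The carriers given with every library's value were the 8 highest by NC FPKM, up to 6 in each direction with an unadjusted p under 0.05, and the close relatives SLC25A4/5/6/31, SLC25A12/13, SLC25A28/37, SLC25A23/24/25 and SLC25A39/40; any others given in full were picked with their values in view. The members, role groups and partner lists were chosen with earlier results of these data known. The values of 1 tested carrier are not reported here; the counts and medians include it.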

Additional observations from a re-analysis of the deposited data

How the results depend on the processing

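The count of 36 carriers expressed in NC stayed within 1.5 times over the levels tried, and 0 carriers were called in any fit without a replicate block. Of 530 recomputed values, 22 log2 fold changes of single carriers took the other sign, as did some medians near 0, and the cause was not tested. The 530 also hold counts and medians. Only the carriers chosen by rule to be given with every library's value were followed singly over all settings. The 22 therefore leave out reversals of the other carriers. With offsets alone, the sign stayed for 29 of the 40 tested carriers. The carriers with an unadjusted p under 0.05 and a value above 0 (4) became 2 with library size alone, 1 with limma on log2(FPKM + 1), 7 with a replicate block and 1 to 9 on leaving out a library. Those below 0 (2) became 4 with DESeq2, with library size alone, with no filter on low counts and with block and offsets together, 5 with limma on log2(FPKM + 1), 6 with the block and 0 to 6 on leaving out a library. Over all genes and both directions, the count was 4689 of 15302 with the block and 3055 of 13207 with block and offsets. It was 2805 of 15302 with DESeq2, 2021 with library size alone and 2055 with limma on log2(FPKM + 1). With no filter it was 2697 of 20318. The median log2 fold change (0.077) became -0.060 with library size alone and -0.091 on the FPKM scale, and lay between 0.041 and 0.12 on leaving out a library. It was -0.013 with offsets and without knockdown library 1 together, an alternative chosen after seeing the data, in which 2 carriers above 0 and 3 below had an unadjusted p under 0.05. Of all genes in that fit, 1152 of 13384 had such a p.

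SLC25A5 became -0.088 with library size alone, -0.16 with offsets, -0.16 with block and offsets, -0.086 on the FPKM scale, and -0.048 (without knockdown library 3) to 0.090 on leaving out a library. SLC25A3 became 0.26 with offsets, 0.25 with block and offsets, and -0.23 to 0.049 (without knockdown library 1) on leaving out a library. SLC25A6 became -0.0053 with block and offsets. SLC25A10 became -0.063 with offsets, -0.067 with block and offsets, and kept its sign, at 0.23 to 0.75, on leaving out a library. SLC25A16 became -0.032 with library size alone and -0.44 on the FPKM scale, and SLC25A4 -0.27 on the FPKM scale. SLC25A37 became -0.13 with library size alone, -0.16 on the FPKM scale, and -0.096 to 0.10 on leaving out a library (-0.00067 without NC library 1). With offsets and without knockdown library 1 together, SLC25A5 became -0.079, SLC25A3 0.24, SLC25A10 -0.13 and SLC25A37 -0.025, while SLC25A6 kept its sign, at 0.20.

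Replicate numbers were shared by both groups, but same-numbered libraries deviated together with correlations of 0.25, 0.363 and 0.007, so the numbers were not taken to pair the libraries, although each knockdown library correlated best with the NC library of its own number. The edgeR fit with a replicate block called 5 carriers (SLC25A39, SLC25A40, SLC25A24, SLC25A36 and SLC25A6), with 4.14% of all genes called, and block and offsets together called 2 others (SLC25A15 and SLC25A44), with 4.92% of all genes. Over all genes, the count at an unadjusted p under 0.05 was 2215 of 15302. It lay between 503 of 15585 without NC library 2 and 5615 of 15635 without knockdown library 2. Depth limits the carriers under 3 counts per library, and for SLC25A21, SLC25A18, SLC25A41 and SLC25A34 the SE was 0.34 to 0.49.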
